A study of Homo sapiens with 12 samples.

Results

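The genes described here encode the 4 subunits of the negative elongation factor NELF (NELFA, NELFB, NELFCD and NELFE) and 6 members of the super elongation complexes: ELL and ELL2, AFF1 and AFF4, and MLLT1 and MLLT3. They were taken by gene name from a table of read counts per gene. All 10 were found among its 60666 human genes, and all 10 were among the 20791 that passed a filter on low counts and were tested.

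The counts came from poly(A)-selected RNA of DLD-1 cells, an established human colorectal adenocarcinoma line. There were 6 groups of 2 libraries: cells with an auxin-inducible degron on SPT6 (SPT6-AID) and cells with one on PAF1 (PAF1-AID), each at 0, 2 and 6 h of 500 µM auxin. Cells of all groups, those at 0 h included, carried OsTIR1, the plant receptor that marks a degron-tagged protein for destruction when auxin is present. SPT6 is a histone chaperone of elongating RNA polymerase II, and PAF1 is a subunit of the PAF1 elongation complex. The labels do not say whether a line was 1 clone or whether the libraries of a group were separate cultures, so p-values measure the spread between these libraries, which may be technical. Auxin was given only to cells with a tagged protein, so an effect of auxin itself and the loss of the protein cannot be told apart. In bulk RNA, fewer cells and less RNA per cell cannot be told apart either.

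Soon after it starts a transcript, RNA polymerase II halts a short way downstream of the promoter, and NELF, together with the factor DSIF, holds it there. The kinase P-TEFb (CDK9 with a T-type cyclin) phosphorylates NELF, DSIF and the polymerase, upon which NELF leaves and elongation proceeds. The super elongation complexes bring P-TEFb to this paused polymerase. Their scaffold is AFF1 or AFF4. ELL or ELL2 suppresses transient pausing of the moving polymerase, and MLLT1 (ENL) or MLLT3 (AF9) carries a YEATS domain that reads acylated histone lysines and can also bind the PAF1 complex. Several of these genes, AFF1, ELL, MLLT1 and MLLT3 among them, are known as fusion partners of KMT2A in leukaemia.

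Library totals ran from 31957953 to 115904780 counts, the lowest in SPT6-AID 6 h replicate 2. Replicates of a group differed by more than sampling noise in all 6 groups, with a chi-square per degree of freedom of 23.8 to 44.2. Of 10 colorectal epithelial marker genes, 8 had a median of at least 1 CPM (reads scaled to a common library size), with VIL1 and LGALS4 near 0, and the summed level of the list was 3647 to 6538 CPM. Immune, fibroblast and endothelial lists had 0 of 5, 1 of 5 (COL1A1) and 0 of 4 genes at that level, with summed levels of 0.214 to 1.74, 0.618 to 3.51 and 0.390 to 2.41 CPM. The immune sum was 1.22 to 1.74 CPM in SPT6-AID cells at 6 h, against 0.214 to 0.523 CPM at 0 h, and at most 0.844 CPM in any other group. The endothelial sum was 2.03 to 2.41 CPM in SPT6-AID cells at 6 h, against 0.392 to 1.25 CPM at 0 h, and at most 1.44 CPM in any other group. Among the immune and endothelial genes CD3E, CDH5 and KDR had a median of 0, and the part of these lists in the results was not tested.

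The 10 genes lie on 6 chromosomes in GRCh38 (GENCODE release 29 spans, all annotated as protein coding). NELFA (ENSG00000185049) is on chromosome 4 from 1982714 to 2041903, minus strand, and NELFB (ENSG00000188986) on chromosome 9 from 137255173 to 137273546, plus strand. NELFCD (ENSG00000101158) is on chromosome 20 from 58981208 to 58995133, plus strand, and NELFE (ENSG00000204356) on chromosome 6 from 31952087 to 31959110, minus strand. ELL (ENSG00000105656) and MLLT1 (ENSG00000130382) are both on the minus strand of chromosome 19, from 18442663 to 18522127 and from 6210379 to 6279948. ELL2 (ENSG00000118985) and AFF4 (ENSG00000072364) are on the minus strand of chromosome 5, from 95885098 to 95962071 and from 132875379 to 132963634. AFF1 (ENSG00000172493) is on chromosome 4 from 86935002 to 87141054, plus strand, and MLLT3 (ENSG00000171843) on chromosome 9 from 20341665 to 20622543, minus strand.

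Promoter windows of 300 bases, from 250 before to 50 after the start (RefSeq, GRCh38.p14), were matched for 9 of the 10 genes by symbol, all but ELL2. Windows are shown for the 4 genes whose RNA fell in SPT6-AID cells and for NELFB, to set a NELF subunit gene whose RNA did not pass the test beside NELFA. Each is written 5′ to 3′ on the gene's strand, with matches to the searched motifs in capitals. They are NELFA at chr4:2008925-2009224 (minus), AFF4 at chr5:132963585-132963884 (minus), MLLT1 at chr19:6279926-6280225 (minus), MLLT3 at chr9:20622450-20622749 (minus) and NELFB at chr9:137255077-137255376 (plus). The NELFA window lies inside the GENCODE span of the gene, not at its outer end.
NELFA: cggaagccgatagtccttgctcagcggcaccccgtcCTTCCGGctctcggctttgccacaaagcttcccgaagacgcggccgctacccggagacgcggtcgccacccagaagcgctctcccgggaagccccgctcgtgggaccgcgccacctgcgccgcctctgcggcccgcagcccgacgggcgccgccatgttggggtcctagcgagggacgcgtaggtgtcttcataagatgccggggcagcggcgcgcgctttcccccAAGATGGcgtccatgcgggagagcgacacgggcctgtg
AFF4: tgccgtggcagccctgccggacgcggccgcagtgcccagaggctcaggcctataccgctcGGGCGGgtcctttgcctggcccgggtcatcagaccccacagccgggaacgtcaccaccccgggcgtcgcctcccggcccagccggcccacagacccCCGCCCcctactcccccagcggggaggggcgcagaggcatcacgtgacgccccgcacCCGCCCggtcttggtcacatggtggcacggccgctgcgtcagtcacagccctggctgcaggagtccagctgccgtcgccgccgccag
MLLT1: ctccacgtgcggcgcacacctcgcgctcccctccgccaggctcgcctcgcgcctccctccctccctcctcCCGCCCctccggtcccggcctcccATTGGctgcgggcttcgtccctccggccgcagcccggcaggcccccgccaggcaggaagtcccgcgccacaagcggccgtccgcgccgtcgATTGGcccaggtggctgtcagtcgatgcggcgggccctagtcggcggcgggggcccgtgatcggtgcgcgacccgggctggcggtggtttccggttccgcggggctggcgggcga
MLLT3: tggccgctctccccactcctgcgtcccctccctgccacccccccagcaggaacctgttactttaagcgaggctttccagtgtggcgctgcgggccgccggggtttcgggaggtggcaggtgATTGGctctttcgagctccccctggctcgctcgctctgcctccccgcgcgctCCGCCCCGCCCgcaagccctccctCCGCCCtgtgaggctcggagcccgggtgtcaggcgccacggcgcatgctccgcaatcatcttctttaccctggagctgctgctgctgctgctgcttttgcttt
NELFB: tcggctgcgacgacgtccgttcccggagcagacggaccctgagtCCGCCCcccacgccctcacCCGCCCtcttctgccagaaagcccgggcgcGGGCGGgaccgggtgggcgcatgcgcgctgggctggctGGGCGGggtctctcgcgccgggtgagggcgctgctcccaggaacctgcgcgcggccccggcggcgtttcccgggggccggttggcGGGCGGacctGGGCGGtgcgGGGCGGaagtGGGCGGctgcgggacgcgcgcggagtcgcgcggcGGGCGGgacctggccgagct

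These windows are rich in G and C: 70.7% in NELFA, 74.7% in AFF4, 77.7% in MLLT1, 68.0% in MLLT3 and 79.3% in NELFB, against a median of 58.7% over all promoter windows in the table. The GC box GGGCGG, the letters bound by SP1-like factors, was searched on both strands and was in 8 of the 9 genes, against 45.0% of 35116 windows. NELFA was the gene without it. NELFB held 9 copies, NELFCD 4 and NELFE 3, beside 3 in AFF4, 3 in MLLT3 and 1 in MLLT1. The ETS core CCGGAAG was in the NELFA window, 214 to 208 bases before the start, and in that of NELFE, against 10.3% of all windows. The YY1 core AAGATGG was in the windows of NELFA and ELL, 12 to 18 bases after the start in NELFA, against 5.84% of all windows. The CCAAT box CCAAT was in AFF1, MLLT1 and MLLT3 (34.6% of all windows). TATAAA, the cyclic AMP response element TGACGTCA and the AP-1 element TGACTCA were in none of the 9, against 11.5%, 1.85% and 4.95% of all windows. No match of one motif overlapped a match of another. These are matches of letters only, and binding was not measured.

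Before auxin, the 10 genes spanned a wide range of levels. Per kilobase of the deposited transcript length, NELFB was highest in both lines, at 51.6 ± 5.3 CPM per kb in PAF1-AID cells and 49.8 ± 3.9 in SPT6-AID cells (SD, n = 2 each). NELFE and MLLT1 came next, with MLLT1 at 25.2 ± 0.75 CPM per kb in PAF1-AID cells, and did not differ from each other beyond their spread. ELL2 was lowest, at 3.42 ± 0.14 CPM per kb in PAF1-AID cells and 3.36 ± 0.22 in SPT6-AID cells. Of each paralogue pair, AFF4 exceeded AFF1 (AFF4 15.8 ± 0.38 and AFF1 7.52 ± 3.6 CPM per kb in PAF1-AID cells, AFF4 17.9 ± 0.42 and AFF1 6.16 ± 0.93 in SPT6-AID cells). Per kilobase MLLT1 exceeded MLLT3, which stood at 17.6 ± 0.49 CPM per kb in PAF1-AID cells and 22.2 ± 0.21 in SPT6-AID cells. In CPM, not divided by length, MLLT3 was the higher one. It had 142 ± 4.0 CPM against 120 ± 3.6 for MLLT1 in PAF1-AID cells, and 179 ± 1.7 against 134 ± 2.6 in SPT6-AID cells. No difference between the lines at 0 h passed the test for the 10 genes (0 called, against 0.0337% of all genes tested, edgeR quasi-likelihood test, Benjamini-Hochberg adjustment over 20791 genes, threshold 0.05). DESeq2 and limma-voom also called 0. The 95% interval of AFF1 was -0.50 to 1.07. At an unadjusted p under 0.05 there was 1, MLLT3, with a log2 fold change of -0.34 ± 0.11 (SE) in PAF1-AID over SPT6-AID cells (adjusted p = 0.589 in edgeR). The other 9 genes had -0.18 to 0.30, with adjusted p of 0.867 to 0.995.

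**Figure D1:**
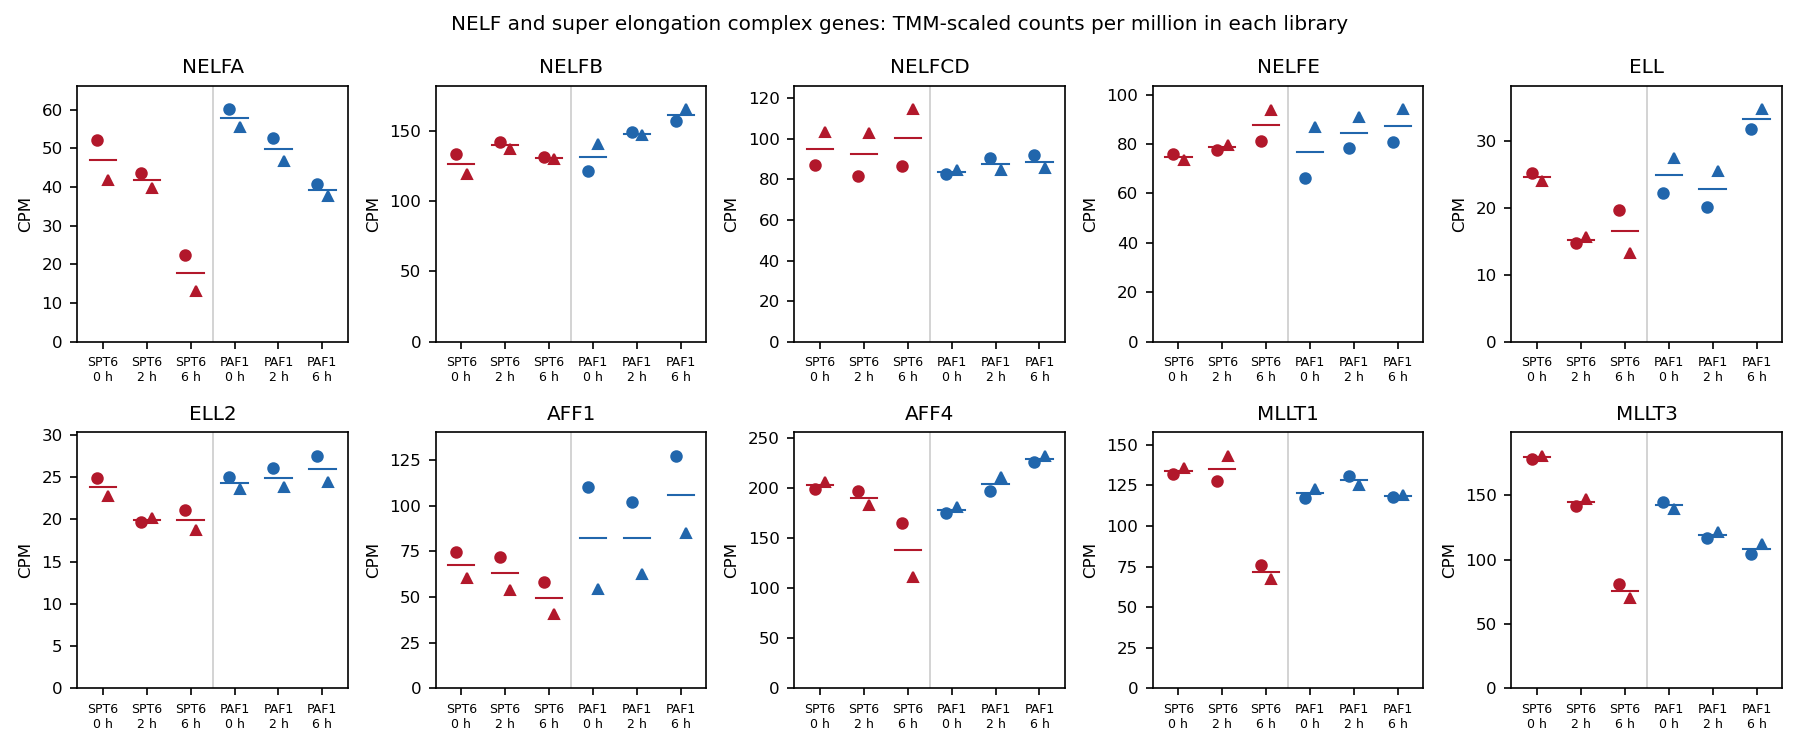
Level of each gene in every library, in CPM after TMM scaling (vertical axes, all starting at 0), for SPT6-AID (red) and PAF1-AID cells (blue) at 0, 2 and 6 h of auxin. Circles are replicates 1 (SPT6-AID) and 3 (PAF1-AID), triangles replicates 2 and 4, and lines the group means. NELFA, MLLT1 and MLLT3 are lowest at 6 h in SPT6-AID cells, while the 6 h values of NELFB and NELFCD there overlap those at 0 h and the 6 h values of NELFE lie above them.

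At 6 h of auxin in SPT6-AID cells, RNA of 4 of the 10 genes fell and that of none rose. NELFA fell to 17.7 ± 6.58 CPM at 6 h, against 47.0 ± 7.27 CPM at 0 h (SD, n = 2 each). MLLT3, MLLT1 and AFF4, a pair of histone readers and a scaffold of the super elongation complexes, fell with it, while the other 3 NELF subunit genes did not pass the test. Over all genes tested in this comparison, 25.2% were called, 16.4% lower and 8.76% higher (edgeR quasi-likelihood test, adjusted p under 0.05). The median log2 fold change of the 10 genes was -0.50, against 0.04 over all genes. At an unadjusted p under 0.05 there were 5 genes, all of them lower, the fifth being ELL. With the replicate number as a block in the fit, 7 genes were lower, all but the NELF subunit genes NELFB, NELFCD and NELFE, and NELFE was higher, beside 51.4% of all genes called. The immune and endothelial marker sums given above were also highest in these libraries.

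NELFA encodes a subunit known to bind the polymerase directly. It had 22.4 and 13.1 CPM in the SPT6-AID 6 h libraries, against 52.1 and 41.9 CPM at 0 h. The 6 h libraries lay below every other library of either line, and replicate 2 was the lowest. The log2 fold change was -1.40 ± 0.22 (SE; edgeR adjusted p = 0.00139), with a 95% interval of -1.90 to -0.91. The 6 h replicates were further apart for NELFA than for 89.0% of 14896 genes with at least 1 CPM. Leaving out each of the 12 libraries in turn gave -1.81 to -1.07, with adjusted p of 0.000441 to 0.0106.

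NELFB and NELFCD encode the subunits that form the core of the complex, and NELFE the subunit with an RNA recognition motif. NELFB had 131 and 129.9 CPM at 6 h in SPT6-AID cells, against 134 and 119 CPM at 0 h. Its log2 fold change was 0.05 ± 0.11, with an interval of -0.21 to 0.30 (edgeR adjusted p = 0.803). The groups overlapped. NELFCD, at 86.5 and 115 CPM at 6 h against 87.2 and 103 CPM at 0 h, had 0.08 ± 0.16 (interval -0.28 to 0.44; adjusted p = 0.768), and again the groups overlapped. NELFE, at 81.2 and 93.9 CPM at 6 h against 76.0 and 73.4 CPM at 0 h, had 0.23 ± 0.15 (interval -0.11 to 0.57; adjusted p = 0.32). Its groups did not overlap, but the difference did not pass the test. NELFE overlaps SKIV2L by 31 bases on the opposite strand, and SKIV2L's counts were 67.8% of those of NELFE. Whether the counting used strand is not given in the sources used here, so reads from the shared end could have gone to either gene or to neither.

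Shares within the complex do not depend on the scaling of libraries. The share of NELFA in the summed counts per kilobase of the 4 subunits was 9.78 and 8.32% at 0 h, 8.08 and 7.26% at 2 h, and 4.40 and 2.41% at 6 h in SPT6-AID cells. In PAF1-AID cells it was 12.1 and 9.74% at 0 h, 9.22 and 8.07% at 2 h, and 7.02 and 6.14% at 6 h. In both lines the 6 h libraries were below all 0 h and 2 h libraries of that line. By transcript length NELFB made up the largest share in all 12 libraries, at 47.3 to 53.8%. This order depends on the length used. With the gene span instead, NELFE was largest in SPT6-AID cells, at 42.4% at 0 h and 46.1% at 6 h, against 27.4 and 26.4% for NELFB. The shares were not tested.

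**Figure D2:**
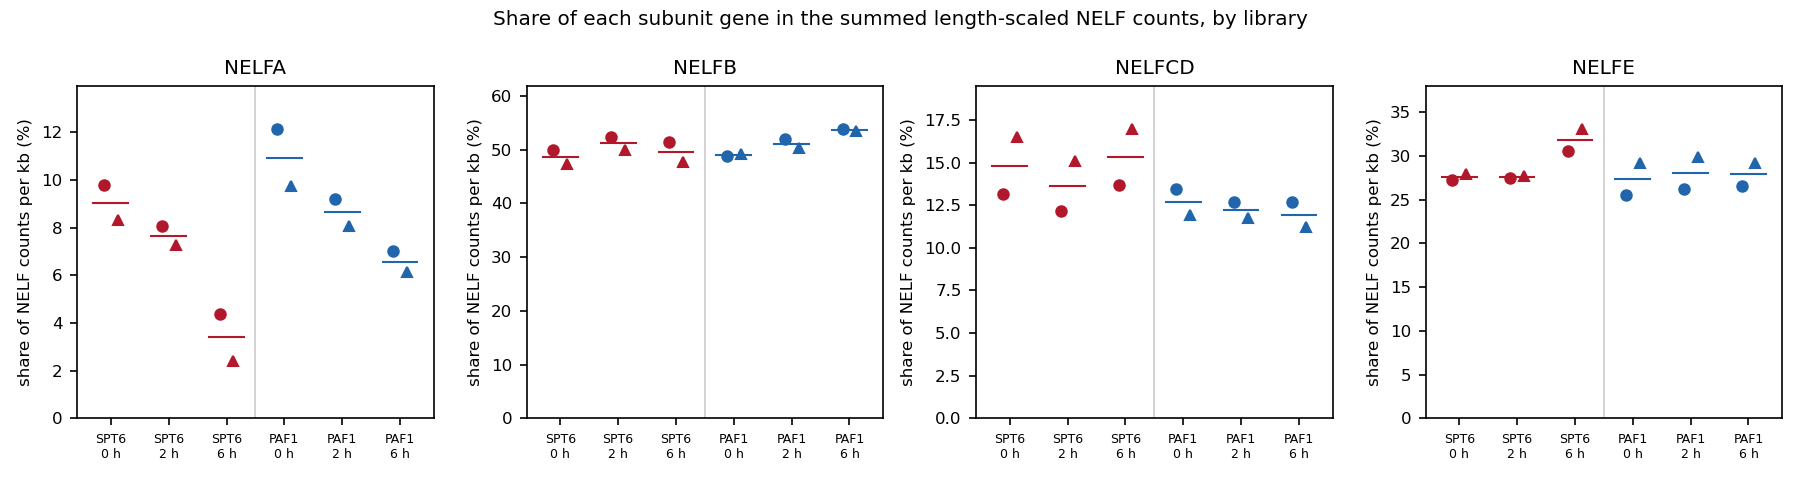
Share of each NELF subunit gene in the summed length-scaled counts of the 4 subunit genes (vertical axes, percent, starting at 0), by group. Circles and triangles are the 2 libraries of a group and lines their means. The NELFA share averages 3.40% at 6 h in SPT6-AID cells and 6.58% at 6 h in PAF1-AID cells, below the 0 h means of 9.05% and 10.9%.

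MLLT1 and MLLT3 are the YEATS domain readers, of which a super elongation complex holds one or the other. MLLT3 had 81.3 and 70.5 CPM at 6 h in SPT6-AID cells, against 178 and 181 CPM at 0 h, a log2 fold change of -1.24 ± 0.11 (SE; edgeR adjusted p = 0.000124). Every 6 h library was below every other library of either line. MLLT1 had 75.9 and 67.1 CPM at 6 h, against 132 and 135 CPM at 0 h, a log2 fold change of -0.90 ± 0.11 (edgeR adjusted p = 0.00044). Here too the 6 h libraries were below all others. Without any one of the 12 libraries, MLLT3 stayed between -1.31 and -1.14 and MLLT1 between -0.96 and -0.81, with adjusted p of at most 0.00157 and 0.00500.

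The scaffold gene AFF4 had 165 and 111 CPM at 6 h in SPT6-AID cells, against 199 and 206 CPM at 0 h. Both 6 h libraries were below both 0 h libraries, but they differed from each other by 0.57 on the log2 scale. The log2 fold change was -0.56 ± 0.16 (SE; edgeR adjusted p = 0.0301, interval -0.92 to -0.19). Without replicate 2 at 6 h the log2 fold change shrank to -0.29. Without replicate 1 or replicate 2 at 0 h it stayed at -0.60 or -0.54. The call was lost in each of these fits, which leave a lone library in a group. It was also lost when SPT6-AID libraries were fitted alone (adjusted p = 0.120), with total human counts as library sizes (0.0645) or with a minimum mean of 1 CPM (0.0835). It held in edgeR with fly totals as library sizes (-0.95, adjusted p = 0.0132) and with the replicate block (-0.58, adjusted p = 0.000334).

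AFF1, the other scaffold gene, had 58.3 and 40.8 CPM at 6 h in SPT6-AID cells, against 74.8 and 60.3 CPM at 0 h. Both 6 h libraries were below both 0 h libraries, with a log2 fold change of -0.45 ± 0.36 that did not pass the test (edgeR adjusted p = 0.406, interval -1.23 to 0.34). AFF1 had the widest interval of the 10 genes. In all 6 groups the lower-numbered replicate was the higher one. With the replicate number as a block in the fit, AFF1 passed the test at 6 h in SPT6-AID cells. Its log2 fold change was then -0.46 (edgeR adjusted p = 0.00109), beside 51.4% of all genes called. In PAF1-AID cells replicate 3 exceeded replicate 4 by 1.02, 0.71 and 0.59 on the log2 scale at 0, 2 and 6 h, more than 96.9%, 94.6% and 91.1% of genes with at least 1 CPM. AFF1 has a pair of promoter windows in the RefSeq table, and the pseudogene TECRP1 on its opposite strand had counts equal to 7.80% of its own. Which transcript starts were used was not measured.

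ELL had 19.7 and 13.2 CPM at 6 h in SPT6-AID cells, against 25.2 and 24.0 CPM at 0 h, with a log2 fold change of -0.58 ± 0.20 (edgeR adjusted p = 0.0644). Both 6 h libraries were lower, yet the difference just missed the threshold. Without replicate 1 at 6 h it was -0.86 (adjusted p = 0.0178), and with fly totals as library sizes -0.98 (adjusted p = 0.0188). ELL2, the paralogue, had 21.2 and 18.7 CPM at 6 h against 25.0 and 22.7 CPM at 0 h, with a log2 fold change of -0.26 ± 0.14 (adjusted p = 0.217, interval -0.57 to 0.05). With fly totals it was -0.68 (adjusted p = 0.0340). All 6 super elongation complex genes had negative log2 fold changes in this comparison, 3 of them called, with a median of -0.57.

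**Figure D3:**
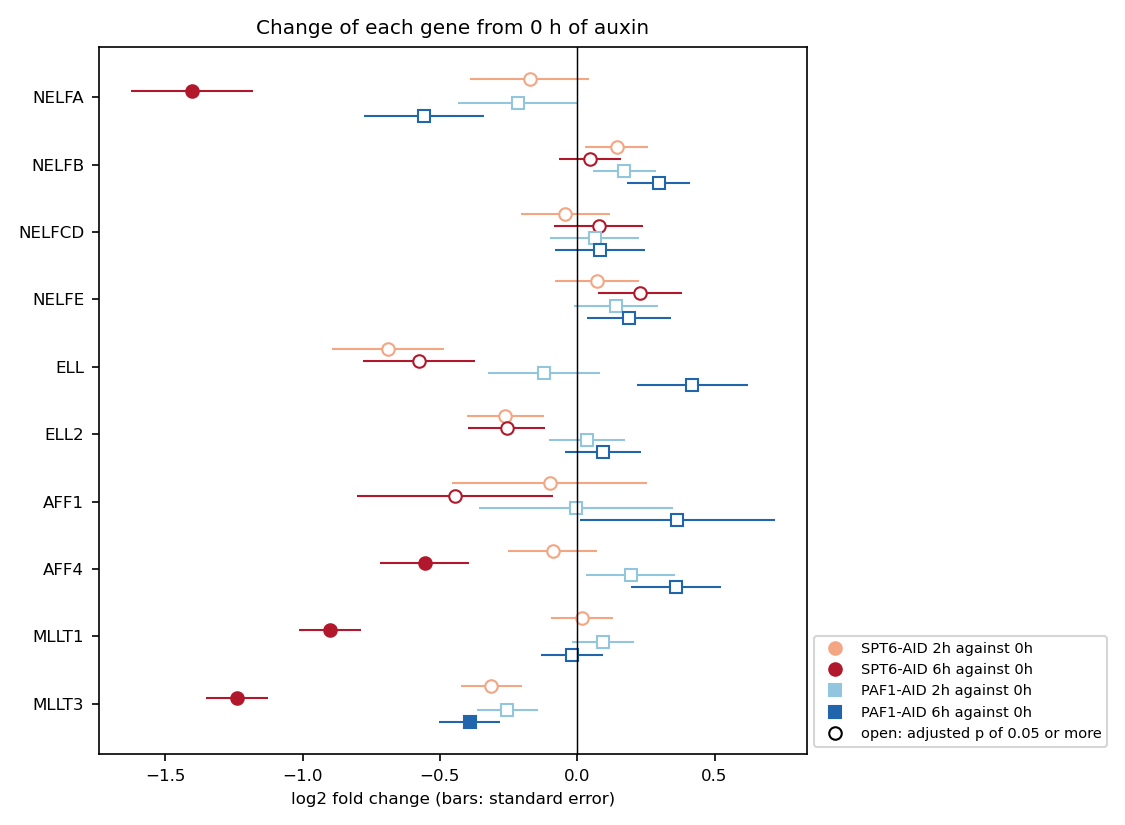
Log2 fold change of each gene from 0 h in the 4 comparisons (horizontal axis), with bars of 1 standard error. Filled symbols have an adjusted p under 0.05 in edgeR. NELFA, AFF4, MLLT1 and MLLT3 are filled at 6 h in SPT6-AID cells, at -1.40, -0.56, -0.90 and -1.24, and MLLT3 alone at 6 h in PAF1-AID cells, at -0.39.

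At 2 h of auxin none of the 10 genes was called in either line by edgeR, and none by DESeq2 or limma-voom. In SPT6-AID cells 0.548% of all genes were called, and 2 of the 10 had an unadjusted p under 0.05. ELL had 14.8 and 15.7 CPM at 2 h, against 25.2 and 24.0 CPM at 0 h. The groups did not overlap, and 4.58% of genes had a lower log2 fold change than its -0.69 ± 0.20, yet its adjusted p was 0.232. MLLT3 had 142 and 147 CPM at 2 h, against 178 and 181 CPM at 0 h, with -0.31 ± 0.11 (adjusted p = 0.403). The other 8 genes had log2 fold changes of -0.26 to 0.14 and adjusted p of 0.857 to 1. With the replicate block ELL (adjusted p = 0.00173) and MLLT3 (0.0278) were called, beside 7.76% of all genes. In PAF1-AID cells 0.149% of all genes were called, and MLLT3 was the gene with an unadjusted p under 0.05. It had 117 and 121 CPM at 2 h, against 145 and 139 CPM at 0 h, a log2 fold change of -0.26 ± 0.11 (adjusted p = 0.648). The other 9 genes had -0.22 to 0.20, with adjusted p of 0.928 to 1. No difference between the responses of the lines at 2 h passed the test for the 10 genes in edgeR, DESeq2 or limma-voom. In edgeR 0 were called and 0 had an unadjusted p under 0.05, against 0.0337% of all genes called. The differences were -0.57 to 0.04, some with wide 95% intervals, -1.20 to 0.07 for ELL and -1.21 to 1.01 for AFF1.

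The change from 2 to 6 h was also tested. In SPT6-AID cells, against 2 h, 3 of the 10 genes were lower at 6 h and none higher, beside 15.7% of all genes called (10.4% lower). They were NELFA (-1.23 ± 0.22, edgeR adjusted p = 0.00543), MLLT1 (-0.92 ± 0.11, adjusted p = 0.00122) and MLLT3 (-0.93 ± 0.11, adjusted p = 0.00114). AFF4 had -0.47 ± 0.16 (adjusted p = 0.0819), and without replicate 1 at 6 h it was -0.75 (adjusted p = 0.00588). The other 6 genes had -0.34 to 0.16, with adjusted p of 0.576 to 0.989. With the replicate block 5 genes were lower and none higher, beside 40.7% of all genes called. In MLLT1 the 2 h libraries, at 127 and 143 CPM, bracketed those at 0 h. In MLLT3 they lay between the 0 h and 6 h libraries. The comparisons with 0 h and with 2 h share the 6 h libraries.

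In PAF1-AID cells at 6 h, RNA of 1 of the 10 genes fell and that of none rose, beside 10.9% of all genes called (6.70% lower and 4.20% higher). MLLT3 had 104 and 112 CPM at 6 h, against 145 and 139 CPM at 0 h, a log2 fold change of -0.39 ± 0.11 (SE; edgeR adjusted p = 0.0483). The groups did not overlap, but the call sits at the threshold: it was lost without any one of 10 of the 12 libraries, all except those of SPT6-AID cells at 6 h, with log2 fold changes of -0.46 to -0.33 and adjusted p of 0.0379 to 0.291 over all 12. It was also lost with DESeq2's size factors (adjusted p = 0.0574), without the filter on low counts (0.169) and with a minimum mean of 1 CPM (0.0513). With the replicate block 6 genes were called, beside 38.3% of all genes: MLLT3 and NELFA lower, and NELFB, ELL, AFF1 and AFF4 higher, with adjusted p of 0.000891 to 0.0144. The labels do not say what a replicate number marks.

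NELFA had 60.1 and 55.5 CPM at 0 h, 52.7 and 46.8 CPM at 2 h, and 40.8 and 37.8 CPM at 6 h in PAF1-AID cells. The libraries of the 3 times did not overlap. Its log2 fold change at 6 h against 0 h, -0.56 ± 0.22, did not pass the test (edgeR adjusted p = 0.136). It passed when PAF1-AID libraries were fitted alone (adjusted p = 0.0279), without the filter on low counts (0.0458), or without either SPT6-AID 6 h library (0.0352 without replicate 1 and 0.0345 without replicate 2).

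NELFB had 157 and 165 CPM at 6 h in PAF1-AID cells, against 122 and 141 CPM at 0 h, a log2 fold change of 0.30 ± 0.11 (edgeR adjusted p = 0.132). AFF4 had 226 and 232 CPM at 6 h against 175 and 181 CPM at 0 h, a log2 fold change of 0.36 ± 0.16 (adjusted p = 0.197, and 0.0487 and 0.0492 without SPT6-AID 6 h replicate 1 or 2). ELL had 31.8 and 34.7 CPM at 6 h against 22.3 and 27.4 CPM at 0 h, a log2 fold change of 0.42 ± 0.20 (adjusted p = 0.228). In these 3 genes both 6 h libraries were above both 0 h libraries. NELFCD, NELFE, ELL2, AFF1 and MLLT1 had log2 fold changes of -0.02 to 0.36 and adjusted p of 0.492 to 0.944. The median over the 10 genes was 0.14, against 0.02 over all genes. Between 2 and 6 h none of the 10 was called in PAF1-AID cells in edgeR, DESeq2 or limma-voom, beside 0.875% of all genes. At an unadjusted p under 0.05 there was 1, ELL (0.54 ± 0.20, adjusted p = 0.249). The other 9 had -0.34 to 0.37, with adjusted p of 0.571 to 0.986. With the replicate block 2 genes were higher and 1 lower, beside 20.1% of all genes called.

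The difference between the lines was tested directly, as the SPT6-AID change from 0 h minus the PAF1-AID change from 0 h. At 6 h it was negative and past the threshold for 2 of the 10 genes and positive for none, beside 3.74% of all genes (3.12% lower and 0.620% higher). They were the reader genes. MLLT1 had log2 fold changes of -0.90 in SPT6-AID and -0.02 in PAF1-AID cells, a difference of -0.88 ± 0.16 (edgeR adjusted p = 0.0201). MLLT3 had -1.24 in SPT6-AID and -0.39 in PAF1-AID cells, a difference of -0.85 ± 0.16 (adjusted p = 0.0215). Both calls were lost, and the count became 0, without any one of 7 libraries: the 4 at 0 h, either PAF1-AID 6 h library or SPT6-AID 6 h replicate 2. Without SPT6-AID 6 h replicate 1 the count was 5, with AFF4, ELL and NELFA added, beside 4.88% of all genes. With the replicate block it was 6, with AFF1 added to those 5, beside 21.7% of all genes. Both were also lost with total human counts or fly counts as library sizes, beside 1.07% and 0.077% of all genes called. Over the 12 fits that each left out 1 library, adjusted p ran from 0.0152 to 0.0941 for MLLT1 and from 0.0146 to 0.111 for MLLT3, with differences of -0.94 to -0.79 for MLLT1 and -0.92 to -0.75 for MLLT3.

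AFF4 and ELL had differences as large or larger, -0.92 ± 0.23 (adjusted p = 0.0577) and -0.99 ± 0.29 (adjusted p = 0.091), and missed the threshold in edgeR. DESeq2's Wald test called both, with adjusted p of 0.0165 and 0.0355. For NELFA the difference was -0.84 ± 0.31 (adjusted p = 0.187, interval -1.53 to -0.16). For NELFB, NELFCD and NELFE it was -0.25 ± 0.16, -0.01 ± 0.23 and 0.04 ± 0.22, with 95% intervals that together ran from -0.61 to 0.52. All 6 super elongation complex genes had a negative difference, with a median of -0.87, against 0.01 over all genes.

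**Figure D4:**
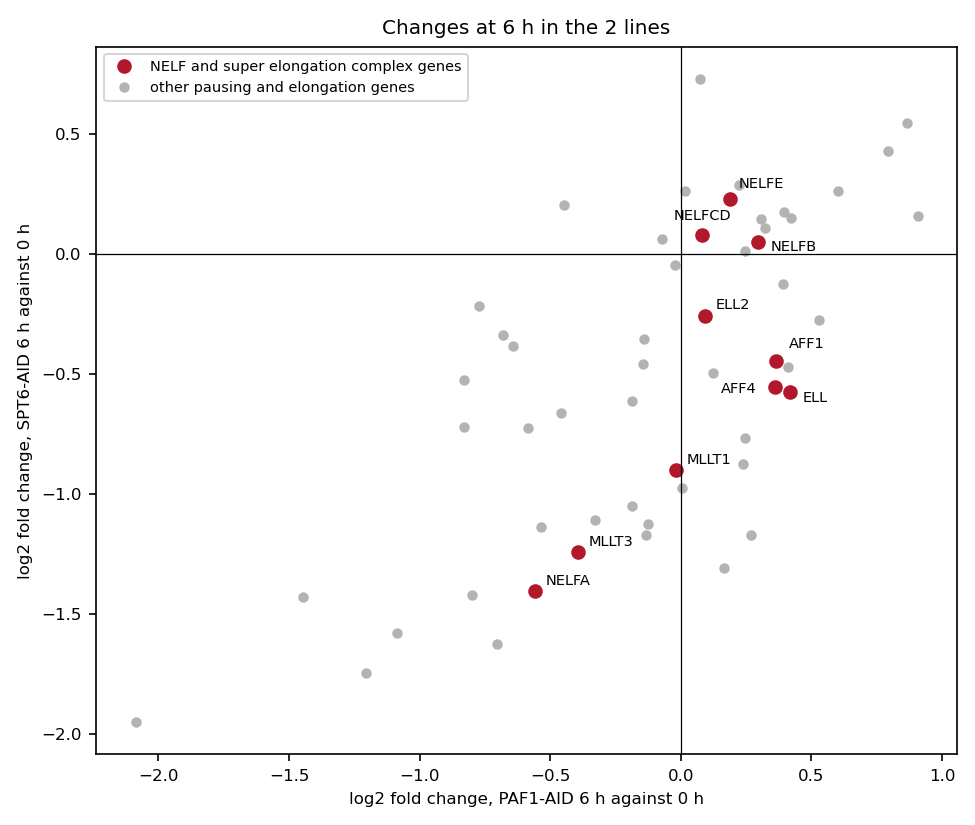
Log2 fold change at 6 h in PAF1-AID cells (horizontal axis) and in SPT6-AID cells (vertical axis) for the 10 genes (red, named) and for 45 other pausing and elongation genes (grey). NELFB, NELFCD and NELFE are close to 0 on the vertical axis, at 0.05, 0.08 and 0.23. AFF1, AFF4, ELL and ELL2 are positive on the horizontal axis (ELL2 at 0.09) and negative on the vertical one. Of these, AFF4 passed the test, in SPT6-AID cells.

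Ratios between paralogues within a library do not depend on the scaling of libraries. The log2 ratio of MLLT3 to MLLT1 counts was 0.43 and 0.41 at 0 h, 0.15 and 0.04 at 2 h, and 0.10 and 0.07 at 6 h in SPT6-AID cells. In PAF1-AID cells it was 0.30 and 0.18 at 0 h, -0.17 and -0.04 at 2 h, and -0.18 and -0.09 at 6 h. In both lines the ratio at 2 h was below that at 0 h in every library, and the 2 h and 6 h libraries were close together. From 2 to 6 h in SPT6-AID cells, MLLT1 fell by 0.92 and MLLT3 by 0.93 on the log2 scale.

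The log2 ratio of ELL2 to ELL was -0.01 and -0.08 at 0 h, 0.41 and 0.36 at 2 h, and 0.10 and 0.50 at 6 h in SPT6-AID cells. In PAF1-AID cells it was 0.17 and -0.22 at 0 h, 0.37 and -0.10 at 2 h, and -0.21 and -0.51 at 6 h. At 6 h the ratio was positive in both SPT6-AID libraries and negative in both PAF1-AID libraries. The log2 ratio of AFF4 to AFF1 averaged 1.59, 1.61 and 1.47 at 0, 2 and 6 h in SPT6-AID cells. In PAF1-AID cells it was 0.67 and 1.74 at 0 h, 0.95 and 1.76 at 2 h, and 0.82 and 1.45 at 6 h. Its SD of 0.76 at 0 h in PAF1-AID cells comes from the gap between the AFF1 replicates. The ratios were not tested.

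**Figure D5:**
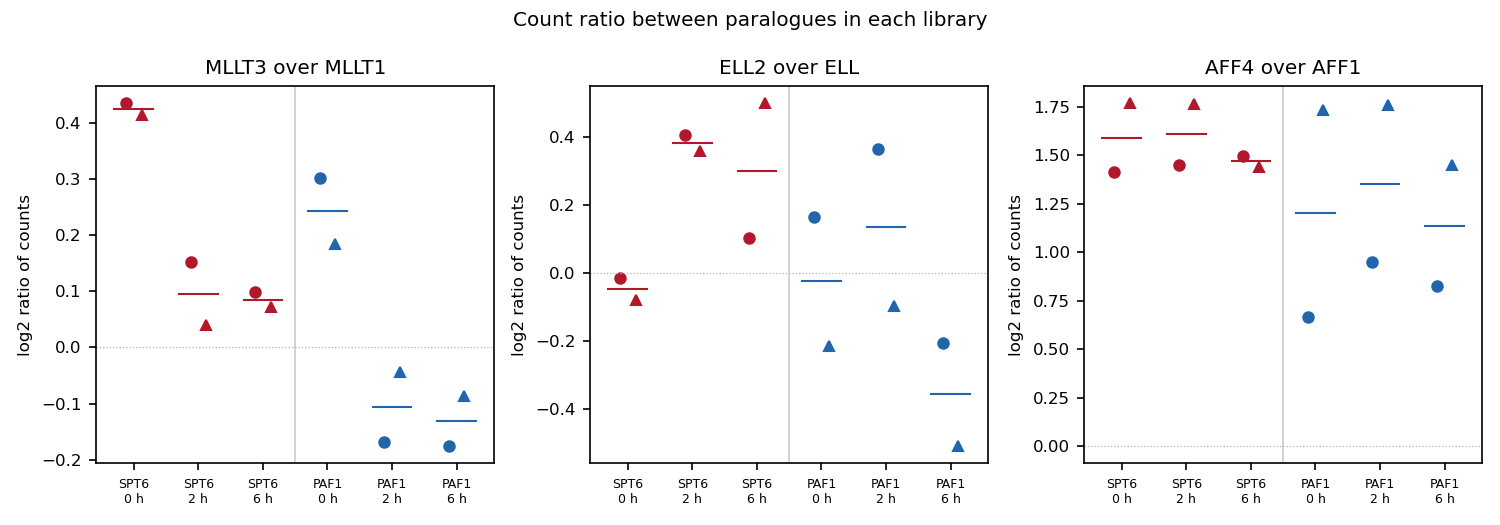
Log2 ratio of counts between paralogues in each library (vertical axes), for MLLT3 over MLLT1, ELL2 over ELL and AFF4 over AFF1. Circles and triangles are the libraries of a group and lines their means. MLLT3 over MLLT1 averages 0.42 at 0 h, 0.10 at 2 h and 0.08 at 6 h in SPT6-AID cells, and 0.24, -0.11 and -0.13 in PAF1-AID cells.

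Other genes of pausing and elongation were counted by list. Of 47 such genes 45 were tested. At 6 h in SPT6-AID cells 22 fell and 2 rose, beside 16.4% of all genes lower and 8.76% higher, with a median log2 fold change of -0.47, against 0.04 over all genes. At 6 h in PAF1-AID cells 10 fell and 5 rose, beside 6.70% of all genes lower and 4.20% higher, with a median of -0.07, against 0.02 over all genes. The smaller lists that follow hold 4 to 12 genes each, and their counts stand beside the same shares of all genes. At 2 h 1 fell in SPT6-AID cells, USPL1, a Cajal body protein found with the little elongation complex (-0.97 ± 0.13, edgeR adjusted p = 0.0117), beside 0.548% of all genes called, and none was called in PAF1-AID cells in edgeR, beside 0.149%.

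Among the other genes of the ELL, AFF and EAF families and the little elongation complex, 3 of 7 tested fell and 1 rose at 6 h in SPT6-AID cells (all genes: 16.4% lower, 8.76% higher), and 2 fell and 1 rose in PAF1-AID cells (all genes: 6.70% lower, 4.20% higher). ICE1 and ICE2, little elongation complex subunits, had -0.87 ± 0.19 and -0.72 ± 0.18 in SPT6-AID cells (adjusted p = 0.00812 and 0.0133 in edgeR). In PAF1-AID cells ICE2 fell too (-0.83 ± 0.18, adjusted p = 0.0156), while ICE1 had 0.24 ± 0.19 (adjusted p = 0.485). EAF1, an ELL-associated factor, rose in both lines. It had 0.43 ± 0.12 in SPT6-AID cells (adjusted p = 0.0271) and 0.79 ± 0.12 in PAF1-AID cells (adjusted p = 0.00387). Of the 7 genes of P-TEFb and of the proteins of the small nuclear RNP that holds it inactive, 4 fell in SPT6-AID cells. MEPCE, which caps that RNA, had -1.58 ± 0.17 (adjusted p = 0.000225), and HEXIM1, the P-TEFb inhibitor, -0.72 ± 0.16 (adjusted p = 0.00775). In PAF1-AID cells 3 fell and 2 rose, with MEPCE at -1.09 ± 0.17 (adjusted p = 0.00383) and HEXIM1 at -0.58 ± 0.16 (adjusted p = 0.0414). The kinase gene CDK9 was at 0.60 ± 0.14 there (adjusted p = 0.0255).

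Of 4 genes of DSIF and of SPT6 with its partner, 1 fell in SPT6-AID cells: IWS1, which binds SPT6, had -1.74 ± 0.20 (edgeR adjusted p = 0.000268). In PAF1-AID cells IWS1 fell too (-1.21 ± 0.19, adjusted p = 0.00432), and SUPT6H, the SPT6 gene, rose (0.42 ± 0.11, adjusted p = 0.0329). Of 6 PAF1 complex genes, 3 fell and 1 rose in SPT6-AID cells, beside 16.4% and 8.76% of all genes. LEO1 and CDC73 had -1.31 ± 0.16 and -1.05 ± 0.18 (adjusted p = 0.000365 and 0.00214). In PAF1-AID cells none was lower in edgeR. CTR9, the scaffold subunit, rose in both lines, by 0.54 ± 0.13 in SPT6-AID cells (adjusted p = 0.0115) and 0.87 ± 0.13 in PAF1-AID cells (adjusted p = 0.00352). Of 9 BET genes and YEATS or DOT1L partners, 7 fell in SPT6-AID cells, beside 16.4% of all genes, and 3 in PAF1-AID cells, beside 6.70%. MLLT10, a DOT1L partner, had -1.62 ± 0.16 in SPT6-AID and -0.70 ± 0.16 in PAF1-AID cells (adjusted p = 0.000191 and 0.021). Of 12 other elongation factors, 4 fell in SPT6-AID cells, beside 16.4% of all genes, and 1 in PAF1-AID cells, a share near the 6.70% of all genes. CDK12, a kinase of the polymerase tail, had -1.42 ± 0.16 in SPT6-AID and -0.80 ± 0.16 in PAF1-AID cells (adjusted p = 0.000261 and 0.0108). These lists were chosen with earlier results of the data known.

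Among the called genes, MLLT3 spans 280831 bases by the deposited gene length, longer than 97.1% of tested genes, AFF4 88240, MLLT1 69595 and NELFA 59187 (76.7% of tested genes were shorter). The 3 NELF genes that were not called are shorter, with NELFB at 18216, NELFCD at 13926 and NELFE at 6952 bases. AFF1, ELL and ELL2, at 206053, 79454 and 76754 bases, are long and were not called in the fit without a block. With the replicate block all of them were lower at 6 h in SPT6-AID cells (edgeR adjusted p = 0.00109, 0.00122 and 0.0330). NELFE was higher in that fit, and 51.4% of all genes were called. With fly totals as library sizes ELL and ELL2 were lower (edgeR adjusted p = 0.0188 and 0.0340), beside 32.7% of all genes called. Across all 20791 genes, which are not independent replicates, Spearman's rho of span with log2 fold change was -0.23 at 6 h and -0.15 at 2 h in SPT6-AID cells, and -0.09 and -0.03 in PAF1-AID cells. The part of gene length in the changes of the 10 genes was not tested.

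Over the 12 libraries, among 13279 genes, those whose log2 CPM followed NELFA most closely were COMMD2, KMT5A and ATF2, each with a Pearson r of 0.99, and those closest to MLLT3 were ARHGAP32, IL22RA1 and UBR2, each with 0.98. At 6 h these genes had log2 fold changes of -0.62 to -1.80 in SPT6-AID cells and -0.22 to -0.56 in PAF1-AID cells. The libraries share groups and scaling, and these values are descriptions with no test.

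The table also holds counts of fly genes, but how much fly material went in, and at which step, is not given in the sources used here. With fly totals as library sizes, the median log2 fold change of all human genes was -0.39 at 6 h and -0.12 at 2 h in SPT6-AID cells, and -0.37 and -0.22 in PAF1-AID cells. A change of library sizes moves all genes of a comparison by nearly one constant, so values relative to that median are close to those given above by construction. Taken without that median, 6 of the 10 genes were lower at 6 h in SPT6-AID cells and none higher, beside 32.7% of all genes called. They were the 4 called above, NELFA (-1.80), MLLT3 (-1.66), MLLT1 (-1.32) and AFF4 (-0.95), with ELL (-0.98) and ELL2 (-0.68), with adjusted p of 0.000438 to 0.0340. AFF1 had -0.85 and did not pass. NELFB, NELFCD and NELFE had -0.39, -0.38 and -0.22 in SPT6-AID cells at 6 h, none past the threshold. In PAF1-AID cells at 6 h MLLT3 was at -0.78 (adjusted p = 0.0225), the one gene called, and NELFA at -0.95 and MLLT1 at -0.40 did not pass. NELFB, NELFCD, NELFE, ELL2, AFF1 and AFF4 turned negative on that scale, at -0.08, -0.31, -0.18, -0.30, -0.08 and -0.03, and none passed the threshold.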

How the data were processed

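Poly(A) RNA of DLD-1 cells was counted per gene in 12 libraries, 2 in each of 6 groups. The deposited values are whole-number read counts per gene, not normalized by the authors. Per the labels' protocols, poly(A) RNA went into a directional NEBNext library kit. The submitters' processing notes name featureCounts 2.0.0, STAR 2.7.5 and cutadapt 1.14, with the builds GRCh38 and BDGP6. The strand setting and the annotation release of the counting are not given in the sources used here.

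Human genes passing edgeR's filterByExpr (minimum count 10, minimum total 15) were scaled by TMM, and 6 group means were fitted over all 12 libraries, with 6 residual degrees of freedom (R 4.3.3, edgeR 4.0.16). Contrasts were tested with the quasi-likelihood test and adjusted by Benjamini-Hochberg over 20791 genes, threshold 0.05. Standard errors were obtained by dividing the size of a log2 fold change by the root of its F statistic. CPM are TMM-scaled, and CPM per kb are divided by the deposited transcript length. The step was also run on simulated data, and no outcome of that run is given here. The simulated libraries had no offset shared between libraries of the same replicate number. Alternatives used DESeq2 1.42.0 and limma 3.58.1 (voom), other scalings and filters, a fit per line, a block for the replicate number, and fits without each library, in which a lone library of a group is taken to vary as the other groups do.

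All 10 genes are given in every comparison, by name or, where they did not pass the test, within a range. From each pathway list up to 3 with the smallest p were eligible, and not all are named. A gene named for one line may also be given for the other. The genes, lists and rules were chosen with earlier results of these data known. Promoter sequences and positions come from RefSeq (GRCh38.p14) and GENCODE 29.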

Additional observations from a re-analysis of the deposited data

Results flagged for a closer look

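The response of the YEATS reader gene MLLT1 at 6 h passed the test for a difference between the lines. The SPT6-AID change from 0 h minus the PAF1-AID change from 0 h was -0.882 on the log2 scale (SE 0.16, edgeR adjusted p = 0.0201). Its CPM at 6 h were below those at 0 h in both SPT6-AID libraries and within the range of 0 h in PAF1-AID cells. The other reader gene, MLLT3, also passed, at -0.848 (SE 0.16, edgeR adjusted p = 0.0215). Both of its 6 h libraries were below both 0 h libraries in each line. Both calls were lost with total human counts as library sizes (edgeR adjusted p = 0.0679 for MLLT1 and 0.0925 for MLLT3). The same held for fly counts (0.156 and 0.203). They also depended on single libraries, as given above. With 2 libraries a group, single outlying libraries could not be tested.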

How the results depend on the processing

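Of the single-gene log2 fold changes recomputed, 445 kept their direction and their side of the threshold under the scalings, filters, tests and fits tried, 29 passed it where they had not, 10 no longer did and 30 changed sign. With libraries left out the numbers were 642, 9, 27 and 30. Under total fly counts, the sign changes at 2 h in SPT6-AID cells were NELFE (-0.055) and MLLT1 (-0.11), and at 6 h NELFB (-0.39), NELFCD (-0.38) and NELFE (-0.22). In PAF1-AID cells they were, at 2 h, NELFB (-0.047), NELFCD (-0.16), NELFE (-0.069), ELL2 (-0.20), AFF4 (-0.031) and MLLT1 (-0.13), and at 6 h NELFB (-0.082), NELFCD (-0.31), NELFE (-0.18), ELL2 (-0.30), AFF1 (-0.076) and AFF4 (-0.026). The difference between the lines at 6 h turned to -0.041 for NELFE. Total human counts turned NELFCD (-0.015 at 2 h, -0.020 at 6 h) and ELL2 (-0.044 and -0.011) in PAF1-AID cells. The difference at 6 h for NELFCD turned to 0.10 with total human counts, 0.084 with a minimum mean of 1 CPM, and 0.033 with DESeq2's size factors and with its Wald test. AFF1 at 2 h in PAF1-AID cells, at -0.004, turned to 0.0036 with DESeq2's size factors and 0.0038 with its Wald test, 0.037 with limma-voom and 0.034 with the replicate block. None of the calls was among these. The causes were not tested.

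At 6 h in PAF1-AID cells 1 of the 10 genes was called in the result given, beside 10.9% of all genes. The number was 0 with DESeq2's size factors (10.7% of all genes called) and 0 with a minimum mean of 1 CPM (13.5%). A fit of that line alone called 2 (12.6%). For the difference between the lines at 6 h, 2 were called in the result given, beside 3.74% of all genes. The number was 0 with total human counts (1.07% of all genes called) and 0 with total fly counts (0.077%). It was 6 without the filter on low counts (3.43%) and 4 in DESeq2 (7.09%). With human and fly counts the difference was -0.77 and -0.92 for MLLT1, and -0.73 and -0.88 for MLLT3. At 6 h against 0 h in SPT6-AID cells, 4 were called in the result given, beside 25.2% of all genes. Under those settings the number was 3 to 6, beside 14.9 to 32.7% of all genes.

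The labels do not say what a replicate number marks. Deviations from the group means correlated at 0.491 to 0.660 between libraries with the same number in a line. With the replicate block the number of genes called was 2 at 2 h and 8 at 6 h in SPT6-AID cells (7 lower and 1 higher), 0 at 2 h and 6 at 6 h in PAF1-AID cells (2 lower and 4 higher), 5 from 2 to 6 h in SPT6-AID and 3 in PAF1-AID cells (1 lower and 2 higher), 0 for the difference between the lines at 2 h and 6 at 6 h. The comparison of the lines at 0 h could not be fitted with the block, since the lines share no number.

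Each library was also left out in turn, and calls were both lost and gained. These fits leave a lone library in a group. The share of all genes called moved with them, so the number called is not compared here. Log2 fold changes whose sign changed ranged as follows. In SPT6-AID cells at 2 h, NELFCD ran from -0.22 to 0.11, AFF1 from -0.33 to 0.093 and MLLT1 from -0.071 to 0.099, and at 6 h NELFB from -0.045 to 0.11 and NELFCD from -0.14 to 0.30. In PAF1-AID cells at 2 h, NELFE ran from -0.038 to 0.36, ELL from -0.29 to 0.043, ELL2 from -0.026 to 0.10 and AFF1 from -0.42 to 0.59, and at 6 h AFF1 from -0.052 to 0.96 and MLLT1 from -0.051 to 0.017. The difference at 6 h ran from -0.22 to 0.22 for NELFCD and from -0.19 to 0.21 for NELFE, and AFF1 at 0 h from -0.32 to 0.70 between the lines.

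With the gene span in place of the transcript length, the share of the NELF counts per kilobase in SPT6-AID cells was 3.13% at 0 h and 1.12% at 6 h for NELFA, 27.4 and 26.4% for NELFB, 27.02 and 26.3% for NELFCD, and 42.4 and 46.1% for NELFE. Counts of the 10 genes ran from 374 to 19612 per library, so with 2 libraries a group the spread between libraries, not counting error, set the precision.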
